A study of Mus musculus with 27 samples.

Results

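CpGs read on both DNA strands were described in hepatocytes of 9 inbred mouse strains, with reduced representation bisulfite sequencing (RRBS). RRBS cuts DNA with MspI, which recognises CCGG, and converts unmethylated cytosine, so that the share of reads keeping a C at a position gives its percent methylation. A CpG entered when both of its cytosines, at positions p and p+1, were listed in all 27 samples and no sample listed p-1 or p+2. The rule was applied to the autosomes and used presence in the files only, not the methylation values. It gave 491249 pairs, which held 982498 of the 1653370 autosomal positions listed in all 27 samples (59.4%). Without the condition on p-1 and p+2 there were 687818 pairs. A run such as CGCG lists 4 consecutive positions, so its CpGs are not among the members.

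All samples were liver hepatocytes of female mice aged 12 weeks, with 3 samples of each strain. The strains were the wild-derived CAST/EiJ, PWK/PhJ and WSB/EiJ, and the laboratory strains C57BL/6J, DBA/2J, A/J, 129S1/SvImJ, NZO/HlLtJ and NOD/ShiLtJ. No treatment, deletion or transgene is named in the labels. The labels call the samples of a strain biological replicates, and each file listed between 2904787 and 3156965 positions with a percentage and no read number, so the depth behind a single value is unknown and no counting interval can be given. Among pairs within 1000 bp of an end of a hepatocyte gene, mean methylation was 0.674% at Apoa2, 6.38% at Apob and 7.96% at Hnf4a, while Alb, Ttr, Apoa1 and Cps1 had no pair. Of the genes of other liver cells, the stellate genes Des and Col1a1 stood at 8.93% and 36.2%, and the bile duct genes Sox9, Krt19 and Epcam at 1.04%, 26.1% and 32.2%. The endothelial genes had no pair. These are methylation levels at gene ends and do not measure expression or the share of cells of a type.

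A CpG reads the same on both strands, so each strand carries its own cytosine. After replication the old strand keeps its methyl group and the new one starts without it. DNMT1, guided by UHRF1, methylates the new strand, which makes the methylation state of a CpG heritable through cell division. A CpG methylated on one strand only is called hemimethylated. RRBS reads each strand from separate molecules, so a percentage on the lower-coordinate strand (position p, the C of the forward strand) and one on the higher-coordinate strand (position p+1) are 2 readings of the CpG. In imprinted regions one parental copy is methylated and the other is not, which gives levels near the middle of the scale on both strands.

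The sequences around 4 places to which the results turn are shown from RefSeq promoter windows of GRCm38.p6, on the forward strand. Capitals mark the CpGs whose strands differed. Armh3 is shown because 6 neighbouring CpGs were methylated on one strand in one strain. Mcts2, an imprinted gene, is shown for 5 CpGs whose strands parted in some strains and not in others. Vmn2r29, a vomeronasal receptor gene of a large family, has 2 such CpGs, and Pheta2, which encodes an adaptor of endosomal trafficking, has a CpG whose strands were far apart in every sample. The Armh3 stretch is chr19:45998489-45998581, the Mcts2 stretch chr2:152687029-152687147, the Vmn2r29 stretch chr7:7278365-7278439 and the Pheta2 stretch chr15:82341198-82341227.
Armh3: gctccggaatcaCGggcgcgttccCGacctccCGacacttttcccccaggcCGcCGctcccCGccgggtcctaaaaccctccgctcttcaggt
Mcts2: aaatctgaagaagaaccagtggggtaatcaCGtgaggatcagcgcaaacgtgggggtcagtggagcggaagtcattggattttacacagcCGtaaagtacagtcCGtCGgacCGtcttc
Vmn2r29: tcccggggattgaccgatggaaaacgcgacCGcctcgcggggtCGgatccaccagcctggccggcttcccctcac
Pheta2: gccggggttcagagCGagaaagcccagggg
The first 3 stretches lie before the annotated start, and the Pheta2 stretch lies within the first 50 bases after one. All 72167 pairs inside a promoter window had the letters CG at p and p+1 there.

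Across the 491249 pairs the strands of a CpG were close to each other in every sample. The mean absolute difference between strands was 3.80 percentage points in the sample with the smallest value (CAST/EiJ replicate 5) and 5.04 points in that with the largest (C57BL/6J replicate 4), with a median over samples of 4.29. The median pair differed by 0 points in each sample. Both strands were listed at exactly 0% in 47.2% to 58.7% of pairs and at exactly 100% in 3.63% to 8.02%. Between 82.6% and 88.6% of pairs lay within 10 points, and between 1.17% and 3.85% lay 30 or more points apart. Pearson's r between strands, taken across CpGs within a sample, was 0.953 to 0.980. CpGs are not independent replicates, and their levels span the whole scale.

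No difference in direction between the strands passed its test. The lower-coordinate strand minus the higher one averaged 0.00709 points over the 9 strain means, was above 0 in 17 of 27 samples, and did not pass an exact two-sided sign-flip permutation test over strains (p = 0.0781). The smallest p that test allows is 0.00391. The F test of the signed mean over strains did not pass either (permutation test of F, p = 0.629).

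The 2 strands of a CpG in one mouse differed about as much as one position does between mice of a strain. The difference at the same position and strand to the other mice of the strain averaged between 3.93 and 4.80 points per sample. The strand difference exceeded it by 0.0721 points on average, in all 9 strain means and in 19 of 27 samples (exact two-sided sign-flip permutation test over strains, p = 0.00391). Single samples ranged from -0.299 to 0.302 points. The 3 samples of a strain share their differences between mice, so their values are not independent of one another. The F test over strains (permutation test, F = 0.0316, p = 1.00) can therefore not decide whether the excess differs among strains. Over the alternative settings the mean excess ran from 0.0679 to 0.306 points and kept its sign and call, so its size depends on the setting.

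Strains differed slightly in the mean absolute difference. It was 4.80 ± 0.392 points (SD, n = 3) in C57BL/6J, between 4.02 ± 0.0201 in WSB/EiJ and 4.41 ± 0.150 in PWK/PhJ elsewhere, and the F test over strains passed by a small margin (F = 2.66, permutation test with 100000 resamples, p = 0.0411). C57BL/6J replicates 1 and 4 stood highest at 5.01 and 5.04 points, whereas C57BL/6J replicate 2 was at 4.35, within the range of the other strains. Replicates 1 and 4 also had the largest shares of pairs with equal strands, 67.3% and 66.2%. Their r between strands was the lowest, at 0.953 and 0.954. Depth is unknown, and whether it differed in these samples was not tested. Without C57BL/6J the strains were not separated (F = 1.30, permutation p = 0.313), and the test missed the threshold in 12 of the 27 fits that leave out a sample. The difference between mice of the strain was also largest in C57BL/6J, at 4.74 ± 0.0850 points.

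**Figure D1:**
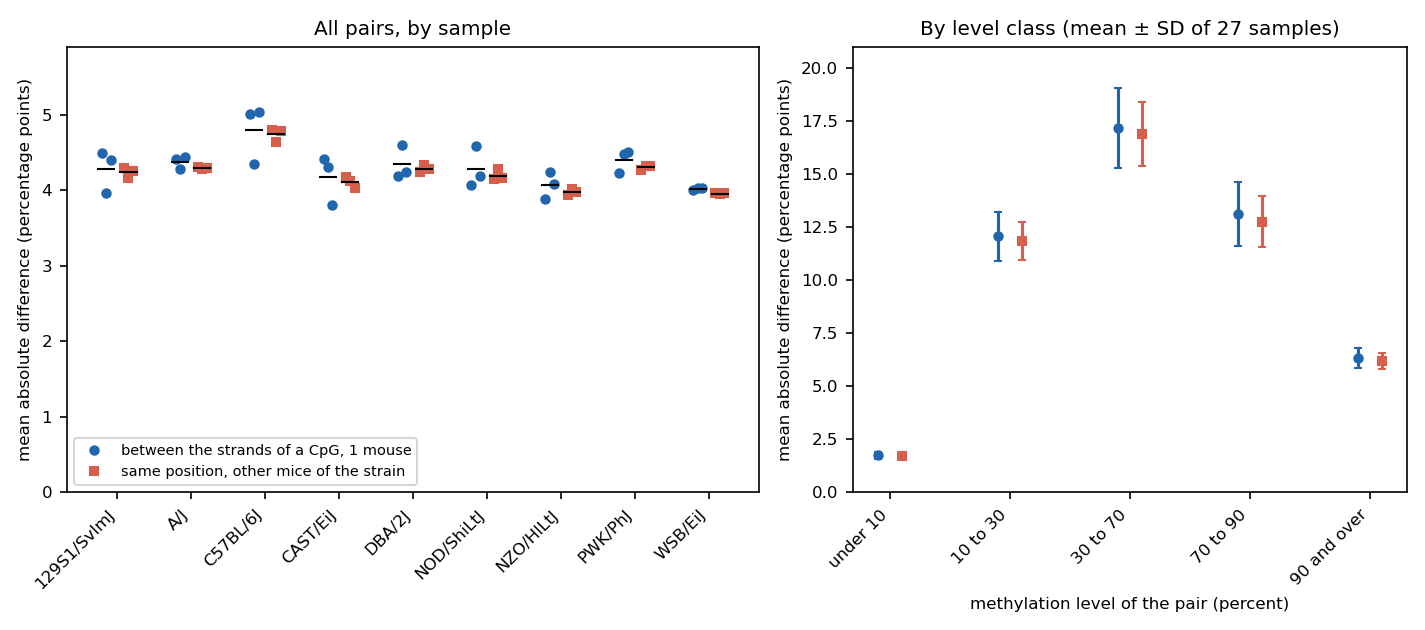
Mean absolute difference in percentage points between the strands of a CpG (blue circles) and between mice of a strain at the same position and strand (red squares), for each of 3 samples per strain with the strain mean as a bar (left) and by level class as mean ± SD of 27 samples (right). Both measures lie between 3.80 and 5.04 points in all samples, and both peak in the class of 30 to 70% methylation.

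Agreement followed the methylation level. Near the ends of the scale the level itself caps the difference between strands, so this pattern is in part set by the scale. Pairs were split by their mean over both strands and all samples. Of all pairs, 69.6% lay under 10% methylation and 15.2% at 90% or more. The mean absolute strand difference was 1.75 ± 0.170 points (SD, n = 27 samples) under 10%, 12.1 ± 1.15 from 10 to 30%, 17.2 ± 1.89 from 30 to 70%, 13.1 ± 1.503 from 70 to 90% and 6.33 ± 0.476 at 90% and over. In the middle class 39.6% of pairs lay within 10 points and 16.7% lay 30 or more apart, against 95.9% and 0.210% under 10%. The difference between mice rose and fell in the same way, from 1.74 points under 10% to 16.9 in the middle class. The strand difference exceeded it by 0.0111 points under 10% and by 0.118 to 0.344 points in the other classes, with adjusted p from 0.00488 to 0.0313 in 5 exact sign-flip permutation tests.

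Most of the difference in a single sample did not recur. When the signed difference of a pair was averaged over the 27 samples, its size averaged 4.46 points in the middle class in place of 17.2, and 0.588 points in place of 1.75 under 10%.

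Pairs near gene ends agreed more closely, as did the less methylated pairs. Where a protein-coding gene began or ended at most 250 bp away, the mean level was 3.02% and the strand difference 1.69 points. The values were 6.67% and 2.53 points from 250 to 1000 bp, 29.97% and 5.34 points to 5000 bp, 54.7% and 7.39 points to 50000 bp, and 61.6% and 8.51 points beyond. Level and distance therefore had to be separated. Under 10% methylation, pairs within 1000 bp differed by 1.46 points and pairs farther away by 2.45. This near minus far value of -0.988 was below 0 in all 27 samples (exact sign-flip permutation test over strains, adjusted p = 0.0195 over 5 classes). Mean levels there were 0.961% near and 1.81% far. With pairs matched on level in bins of 1 point, the difference shrank to -0.0561 points (adjusted p = 0.0195 by the same permutation test). Such bins are wide beside these mean levels, so near and far pairs may still differ in level within a bin. The matched value therefore cannot separate distance from level under 10%. From 10% upward the near minus far values ran from -0.108 to 0.274 points and none passed (adjusted p from 0.107 to 0.316, exact permutation tests). Matched on level, the value from 10 to 30% turned from -0.108 to 0.207 points, above 0 in 22 of 27 samples. It did not pass (adjusted p = 0.0879, same permutation test), nor did the matched values of the higher classes. Signs above 10% also turned with other settings, given below.

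The 2 strands of a CpG were closer to each other than to the next CpG. Among pairs with a mean level of 10 to 90% whose next pair lay 3 to 10 bp away, the strands of one CpG differed by 14.1 ± 1.35 points (SD, n = 27). The neighbouring CpG differed by 16.7 ± 0.814 points on the same strand and by 18.8 ± 1.12 on the other strand. At 51 to 100 bp the corresponding values were 13.0, 20.7 and 21.5 points. In all 27 samples and at all 4 distances the order was the same, with p = 0.00391 in each exact sign-flip permutation test. Neighbours on one strand are often covered by the same reads, whereas the strands of a CpG never are.

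**Figure D2:**
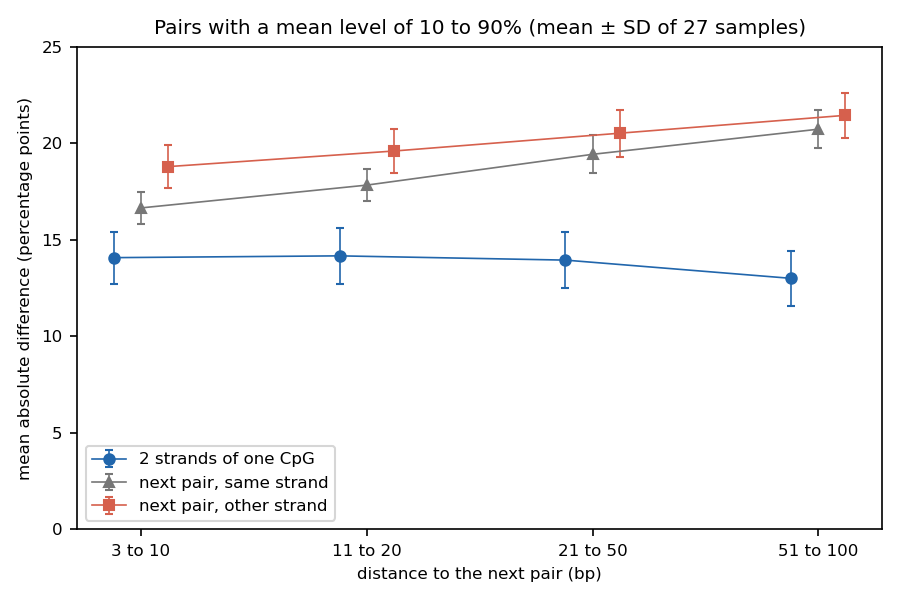
Mean absolute difference in percentage points, as mean ± SD of 27 samples, against the distance in bp to the next pair, for pairs with a mean level of 10 to 90%. The strands of one CpG (blue) lie at 13.0 to 14.2 points at every distance, below the next pair on the same strand (grey) and on the other strand (red), both of which rise with distance.

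The larger a difference between strains was on one strand, the more of it recurred on the other. For each pair the strains with the highest and lowest mean on the lower-coordinate strand were found, and the difference between those strains was then read on the higher-coordinate strand, which had no part in the choice. Where the chosen strand spanned 75 to 100 points (1365 pairs), the other strand had a median difference of 72.0 points, reached 25 points in 90.7% of pairs and pointed the opposite way in 2.42%. At 50 to 75 points (7260 pairs) the median was 37.5 points and 67.4% reached 25. At 25 to 50 points (36576 pairs) the median was 13.1 points and 19.5% pointed the opposite way. At 10 to 25 points it was 2.08, and 33.3% were opposite. Choosing on the higher-coordinate strand gave 72.6, 38.1, 13.2 and 2.04 points. The chosen strand is inflated by its selection, so the other strand is the reading free of it.

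**Figure D3:**
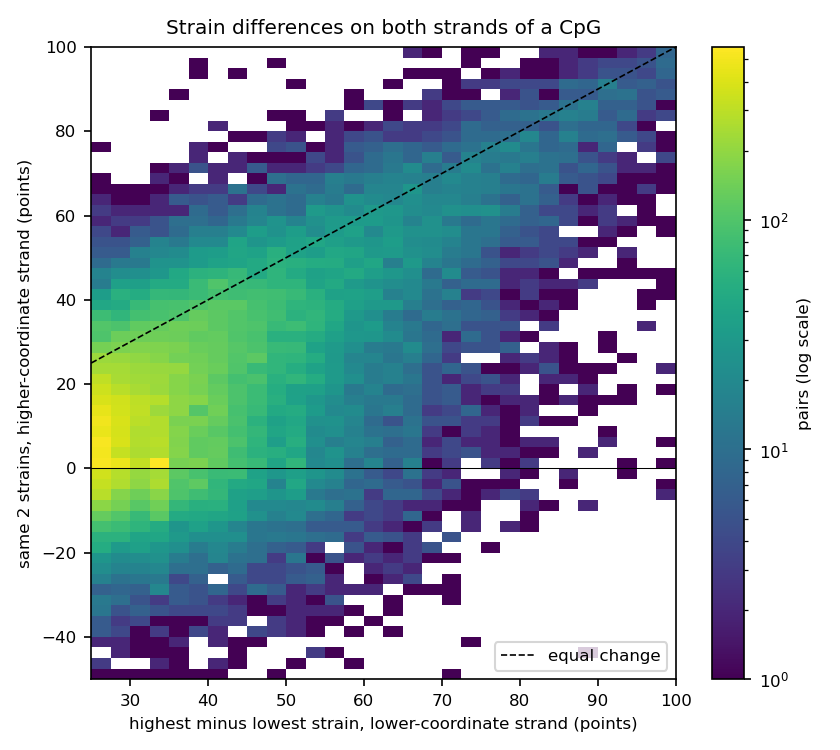
Each pair with a strain span of 25 points or more on the lower-coordinate strand, placed by that span (x axis, percentage points) and by the difference between the same strains on the higher-coordinate strand (y axis, percentage points), with the number of pairs in colour on a log scale. The cloud lies below the dashed line of equal change at small spans, where the median on the other strand is 13.1 points, and nears it at spans of 75 to 100 points, where the median is 72.0.

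Some CpGs had strands that differed beyond the spread between samples of a strain. Each of 185656 pairs whose mean level lay away from the ends of the scale was tested with limma on the difference of log2((percent + 5)/(100 - percent + 5)) between strands. At a Benjamini-Hochberg adjusted p under 0.05 and a mean difference of at least 10 points, 1701 pairs were called, which is 0.916% of those tested. Differences between strains do not enter the spread of this test, so a strand difference present in few strains can be called. Of the 1701, 83 were also called among strains in the test given further below. The lower-coordinate strand was higher in 841 and the higher-coordinate strand in 860. The median absolute mean difference was 16.5 points among called pairs, against 1.66 points over all pairs tested. In 235 pairs it reached 30 points, and 159 pairs had one sign in all 27 samples. Of 182 called pairs that neighbour each other within 100 bp, 151 shared their direction. The share called was 2.25% in the middle class and 0.156% under 10%. Pairs at the lowest levels cannot reach a mean difference of 10 points, so the contrast between these shares is bound by the threshold. In simulated data with the same pairs, 62.5% of added differences of 20 points and 93.0% of those of 30 points were recovered, but 4.50% of those of 10 points, with 200 added at each size and 24 false calls in all.

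At 21 pairs (0.00427% of all pairs) the strands were 30 or more points apart in all 27 samples. These were chosen by their values, so what follows is a description and carries no test. The lower-coordinate strand was the higher one throughout in 11 and the higher-coordinate strand in 9. At the remaining pair, in the cell adhesion gene Ncam1, the lower-coordinate strand was higher in 26 samples and lower in C57BL/6J replicate 4, at 53.3% against 100%. The pairs lay on 12 autosomes, 16 of the 21 within the span of a protein-coding gene, 1 in the pseudogene Gm9451 and 4 in no gene. Of all pairs, 77.8% lay within such a span. The less methylated strand was under 10% in 9 pairs, and the more methylated one reached 90% in 12. The smallest differences in any sample were 33.3, 33.3 and 31.2 points for the last 3 pairs inside the threshold and 28.0, 27.5 and 27.4 points for the first 3 outside it. Within a single strain the limit covers 3 samples only and is easier to meet, so more pairs must meet it. With one sign in all 3 samples, the count ran from 272 in WSB/EiJ to 405 in C57BL/6J, of 491249 pairs. In these strains, 1.65% and 3.25% of pairs lay 30 or more points apart in a sample on average.

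The widest gap was in Pcdh7, a protocadherin gene of cell adhesion, at chr5:58000647-58000648. The lower-coordinate strand ran from 0% to 28.6% over the 27 samples with a median of 6.06%, and the higher-coordinate strand from 75% to 100% with a median of 94.8%. The mean difference was -86.6 ± 8.12 points (SD, n = 27), and no sample of one strand reached any sample of the other. Its 3 neighbouring pairs within 100 bp had mean levels of 91.7% and 88.9% on the 2 strands, so that the low strand of this CpG departed from its surroundings.

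In the gene of the DNA repair scaffold Xrcc1, at chr7:24547838-24547839, the lower-coordinate strand had a median of 0% and a highest value of 16.7%, and the higher-coordinate strand ran from 69.2% to 100%. In Stox1, which encodes a winged-helix protein, at chr10:62665145-62665146, the lower-coordinate strand was at 0% in all 27 samples, and the higher-coordinate strand ran from 46.7% to 85.7% with a median of 70%. In Cspg4, a proteoglycan gene known as NG2, the CpG lay 79 bp from a gene end at chr9:56865183-56865184. There the higher-coordinate strand was at 0% in all samples and the lower one ran from 33.3% to 78.9%. These 3 CpGs held one strand at or near 0 while the other was methylated in each mouse.

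The reverse arrangement, with one strand almost fully methylated, was seen between genes at chr13:51043172-51043173. The lower-coordinate strand was 99.5 ± 2.75% (SD, n = 27) and the higher-coordinate strand 14.02 ± 7.501%. The nearest protein-coding gene, Spin1, ended 54762 bp away. At Atcay, which encodes the brain protein caytaxin, the lower-coordinate strand at chr10:81218893-81218894 was 95.7 ± 8.36% and the higher one 29.3 ± 12.6%. In Vwf, the gene of von Willebrand factor, the values at chr6:125649255-125649256 were 22.2 ± 15.3% and 92.9 ± 9.09%. Near Slc2a1, the gene of the glucose transporter GLUT1, they were 30.3 ± 13.996% and 95.9 ± 8.97% at chr4:119072974-119072975.

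The Pheta2 CpG printed above, chr15:82341212-82341213, had 14.9 ± 11.001% on the lower-coordinate strand and 95.9 ± 9.53% on the other. Its 9 neighbouring pairs within 100 bp averaged 5.79% and 7.96%, so here the high strand departed from its surroundings, unlike at Pcdh7. In the gene of the chromodomain protein Cdyl2, at chr8:116631003-116631004, the lower-coordinate strand was 74.5 ± 11.4% and the higher one 1.27 ± 4.64%.

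In Taco1, which encodes an activator of mitochondrial translation, 3 neighbouring CpGs met the limit together. At chr11:106066778-106066779, chr11:106066787-106066788 and chr11:106066810-106066811 the lower-coordinate strand averaged 65.6%, 85.3% and 66.0%, and the higher-coordinate strand 2.84%, 4.94% and 4.21%. The lower-coordinate strand of the first varied with strain, from 50.98 ± 5.898% (SD, n = 3) in NZO/HlLtJ to 90.4 ± 0.734% in A/J, while the higher one stayed at or under 10.8% in every strain mean. The nearest pairs outside the group had 9.54% and 7.85% on the one side and 3.67% and 2.16% on the other. Of the 21 pairs, 17 had another pair within 100 bp, and 12 of those had a neighbour with a mean difference of 10 points or more. Being close, such CpGs can be read by the same fragments, and they are not independent instances.

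The smallest mean gap of the 21 was between genes near Rpp21 at chr17:36231420-36231421, where both strands moved with strain. A/J samples stood at 53.6 to 59.2% on the lower-coordinate and 90.4 to 91.9% on the higher-coordinate strand, and 129S1/SvImJ samples at 7.40 to 7.70% and 38.9 to 46.9%. In C57BL/6J the higher-coordinate strand read 100%, 33.3% and 100%. None of the 21 pairs was called for a difference among strains in the test described next.

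**Figure D4:**
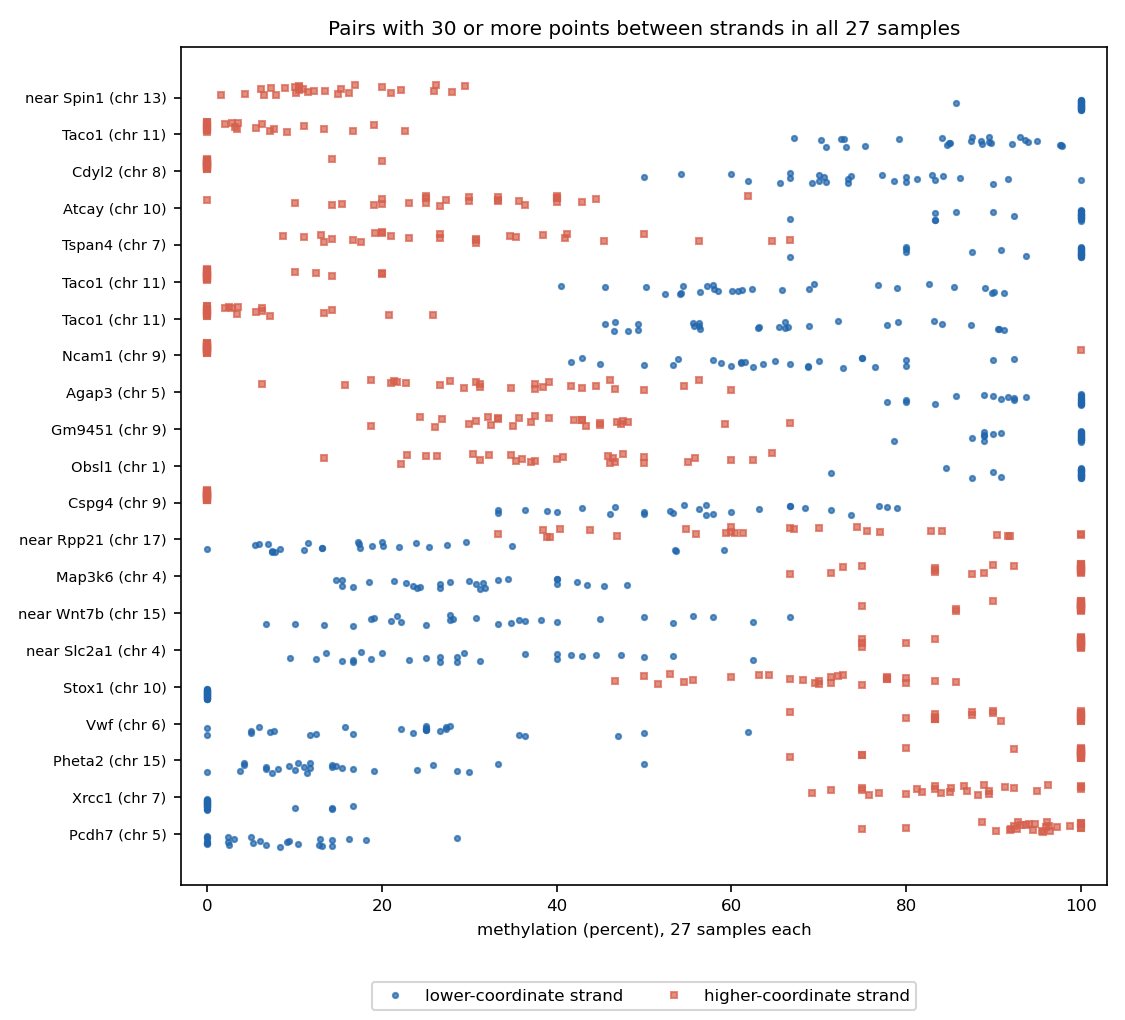
Percent methylation of the lower-coordinate strand (blue circles) and the higher-coordinate strand (red squares) in all 27 samples, for the 21 pairs whose strands lay 30 or more points apart in every sample, ordered by mean difference and labelled by gene or nearest gene and chromosome. Over all samples the ranges of the strands overlap at Ncam1, where 1 red point lies at 100%, and near Rpp21, they meet at 66.7% in Tspan4, and they are apart at the other pairs.

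The strand difference depended on strain at few CpGs. A limma F test of strain on the same scale called 163 of 185656 pairs (0.0878%) at an adjusted p under 0.05 and strain means spanning at least 25 points. This count depends on the scale of the test. It was 41 with an offset of 1 point, 72 at levels of 10 to 90%, 79 with a replicate block and 385 on untransformed points, and the shares below hold for the 163. The median span was 57.6 points, and 104 pairs spanned 50 or more. In 68 pairs exactly 1 strain had a mean difference of 25 points or more. That strain was CAST/EiJ in 23, PWK/PhJ in 18, WSB/EiJ in 13 and C57BL/6J in 4, and each other strain in 1 to 3. In simulated data, 15% of 200 added differences of 70 points in 1 strain were recovered, 1.5% of 200 of 50 points and 0% of 200 of 30 points, beside 23 false calls. A pair that was not called may thus still differ among strains by that much. The share of false calls in this simulation was also above the 0.05 at which the adjusted p was cut. More of the 163 may therefore be false than that threshold states.

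In 75 of the 163 pairs one strand stayed under 10% in all 9 strain means. Of all 185656 tested pairs, 45637 had a mean level under 10% over both strands, and the share with one strand this low was not counted. A call needs a span of at least 25 points, so in the 75 pairs the other strand had to rise in some strain. The highest strain mean on that other strand had a median of 47.5% and lay from 30 to 70% in 72 of the 75. The lower end of that range is largely set by the rule for a call and by the level filter. Only pairs with a mean level of at least 2.5% over both strands and all samples were tested. A pair near 0% except on one strand of few strains passes only if that strand is high there. The median of 47.5% is therefore in part set by the filter and is not a typical level of such pairs. The low strand was the lower-coordinate one in 36. The 6 Armh3 CpGs, within 51 bases before the start of this gene of an armadillo-like helical protein, are the clearest run. Averaged over them, the lower-coordinate strand read 54.4%, 41.4% and 45.8% in the 3 WSB/EiJ samples and 0 to 6.25% in the other 24, with a median of 0%. The higher-coordinate strand read 0%, 0% and 0.667% in WSB/EiJ and at most 0.980% elsewhere. In these values, chosen after they were seen, WSB/EiJ lay apart from all other samples on one strand and on that strand only. Strain means of the difference spanned 41.4 to 51.6 points over the 6 CpGs. Being near 0% in the other strains, these CpGs were tested only because WSB/EiJ was high. The size of its values is thus in part set by the level filter.

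Promoter windows with sequence held 27 of the called pairs, at 16 genes. That is 0.408% of the 6619 tested pairs in these windows, beside 0.0878% of all pairs tested. The shares are not like for like. The 27 include 6 CpGs of Armh3 and 5 of Mcts2, which lie close together and are not separate places. Only 6619 of the 72167 pairs in windows were tested. Pairs near 0% in most strains, as those of Armh3 and Commd1, or in 4 strains, as that of Romo1, passed the level filter only through the strains where they were high. At 16 of the 27 one strand was under 10% in all strains. CAST/EiJ and PWK/PhJ were the strains at 25% or more, with no other, in 5 of the 27. Near Commd1, a gene of copper metabolism, the lower-coordinate strand at chr11:22982250-22982251 averaged 42.4% in CAST/EiJ and 48.3% in PWK/PhJ and 0% in each other strain. At chr11:22982291-22982292 it was the higher-coordinate strand that read 36.9% and 48.6% in these strains and at most 5.93% elsewhere. At Romo1, which encodes a small mitochondrial protein, the lower-coordinate strand of chr2:156144037-156144038 was 39.1 to 46.4% in A/J, DBA/2J, NZO/HlLtJ, PWK/PhJ and WSB/EiJ and at most 3.35% in the other 4 strains. Its higher-coordinate strand stayed at or under 6.06%. Whether reads of near-identical copies elsewhere in a strain's genome contribute at these genes was not tested, since no strain genome was used, and their values are uncertain to that extent.

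Among the 10 pairs with the widest span, one at most per 1 kb, single strains read 0% on one strand of a methylated CpG. At chr5:123120150-123120151 in Rhof, a small GTPase gene, the lower-coordinate strand read 0% in all 3 PWK/PhJ samples and 62.9 to 100% in the other 24. The higher-coordinate strand read 92.3 to 100% in PWK/PhJ (limma F test, adjusted p = 0.000947). At chr2:40584733-40584734, near Lrp1b, PWK/PhJ again read 0% on the lower-coordinate strand and 100% on the other in all 3 samples, and no other sample was under 83.3% on either strand (limma adjusted p = 2.91e-05). CAST/EiJ did so with the strands exchanged at chr12:87584012-87584013 and chr11:63844878-63844879, with 100% on the lower-coordinate and 0% on the higher-coordinate strand in all 3 samples. The other 24 samples lay between 50% and 100% on both strands at these CpGs.

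The opposite case was at chr11:69991657-69991658, 287 bp from an end of Gabarap, a gene of autophagosome formation. PWK/PhJ read 92.9%, 100% and 100% on the lower-coordinate strand and 0 to 4.55% on the other, and the remaining 24 samples lay between 0% and 22.2% on both (limma F test, adjusted p = 0.000143). This pair reached the tested range of mean levels only through PWK/PhJ. Spans at the 5 other pairs were 105 to 120 points with adjusted p of 0.0195 to 0.0442 by limma. Their calls depended on single samples. At chr16:93461996-93461997 the call was kept in 5 of 27 fits that leave out a sample, in Fmn1 at chr2:113617984-113617985 in 3, and in Dnm1 at chr2:32333212-32333213 in 9. At chr5:98302762-98302763 it was lost without any one of the 3 CAST/EiJ samples, and at chr13:107932817-107932818 without C57BL/6J replicate 2 or 4. The 5 pairs described first kept theirs in all 27 fits. Base changes of a strain at these CpGs were not analysed here.

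Imprinted genes, of which one parental copy is silenced, were looked up as a list by gene name. Of 22 names, 2 were not in the gene table and 2 had no pair. The other 18 had 279 pairs within 1000 bp of an end, of which 221 were tested and 29 (13.1%) were called for a strand difference from 0, against 0.916% of all pairs tested. Within the class of 30 to 70% methylation, 15 of 155 pairs of the list (9.68%) and 2.19% of the 21134 others were called. The mean absolute strand difference in that class was 18.5 ± 2.13 points (SD, n = 27) for the list and 17.2 ± 1.90 for the others, and the difference between mice was 16.3 and 16.9 points. The called pairs were at 7 genes and 22 of the 29 had the lower-coordinate strand higher. They are clustered, so their number overstates the number of separate places. None was called among the tested pairs of Grb10 (27 of its 62 pairs), Dlk1 (1 of 10), Nnat (14), Peg13 (10), Meg3 (9), Airn (7), Kcnq1ot1 (5), Peg10 (4), Peg3 (3) and Mest (2). None of the 14 pairs of Inpp5f was tested.

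At Gnas, which encodes the stimulatory G protein alpha subunit, 7 CpGs within 50 bases (chr2:174284704-174284753, inside the gene's span, which starts at 174284320) were called in the same direction, of 25 pairs near its ends. Over all 25 pairs the lower-coordinate strand minus the higher one averaged 11.1 ± 12.0 points (SD, n = 27) and was above 0 in 22 of 27 samples. Averaged over the 7, which were chosen for their difference, the lower-coordinate strand ran from 19.9% to 67.2% with a median of 46.2%, and the higher-coordinate strand from 0% to 31.3% with a median of 3.17%. The lower-coordinate strand was higher in 27 of 27 samples, by 38.5 ± 12.5 points (SD, n = 27). The smallest gap was 5.57 points in CAST/EiJ replicate 1, and the largest 64.0 in WSB/EiJ replicate 4. No strain lay apart from all others. None of the 7 was called among strains (limma adjusted p of 0.957 or more).

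H19, a non-coding RNA gene expressed from the maternal copy, had 4 of 5 pairs called. Over these 4 the lower-coordinate strand averaged 42.4 ± 8.64% and the higher one 22.1 ± 7.97%, with the lower-coordinate strand higher in 26 of 27 samples. Over all 5 pairs it was higher by 17.6 ± 13.6 points, in 24 samples. At Igf2r, the receptor gene that clears IGF2, 7 of 29 pairs were called within 211 bases. Over all 29 pairs the lower-coordinate strand was higher by 8.52 ± 11.2 points (SD, n = 27), in 21 of 27 samples. The 7 called pairs, chosen for their difference, averaged 35.7 ± 10.9% and 15.8 ± 13.95%, with the lower-coordinate strand higher in 24 samples. The remaining calls were 4 of 39 pairs at Zrsr1, 2 in each direction, 1 of 25 at Plagl1 and 1 of 8 at Nap1l5.

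At Mcts2, a retrogene within H13, the 5 CpGs printed above were called both against 0 and among strains (limma adjusted p among strains from 0.00418 to 0.0362). The lower-coordinate strand averaged 43.0 ± 10.95% over all samples, and its strain means at the 5 CpGs lay between 31.96% and 49.8%. The higher-coordinate strand split the strains. It read 37.5%, 43.6% and 16.7% in the C57BL/6J samples, 27.8%, 27.3% and 50% in NOD/ShiLtJ, 54.0%, 71.2% and 45.5% in A/J, and 63.3% to 100% with a median of 97.1% in the 18 samples of the other 6 strains. In those 18 samples the higher-coordinate strand was above the lower-coordinate one every time. The CpGs were chosen for their difference and these 6 strains after their values were seen, so this count is description only. The 5 CpGs lie within 84 bases and moved together. Over all 8 pairs near the gene's ends the lower-coordinate strand minus the higher one averaged -20.2 ± 16.5 points (SD, n = 27).

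At the Vmn2r29 CpGs the lower-coordinate strand averaged 18.3%, 19.7% and 7.69% in CAST/EiJ. The other 24 samples lay between 62.5% and 100% on that strand. The higher-coordinate strand ran from 0% to 50.1% over all. DBA/2J had the widest gap, 100% in all 3 samples against 10.9 to 15.6%. Strain means of the difference spanned 78.8 and 76.3 points. Vmn2r29 belongs to a large receptor family, and whether relatives share its reads was not tested.

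**Figure D5:**
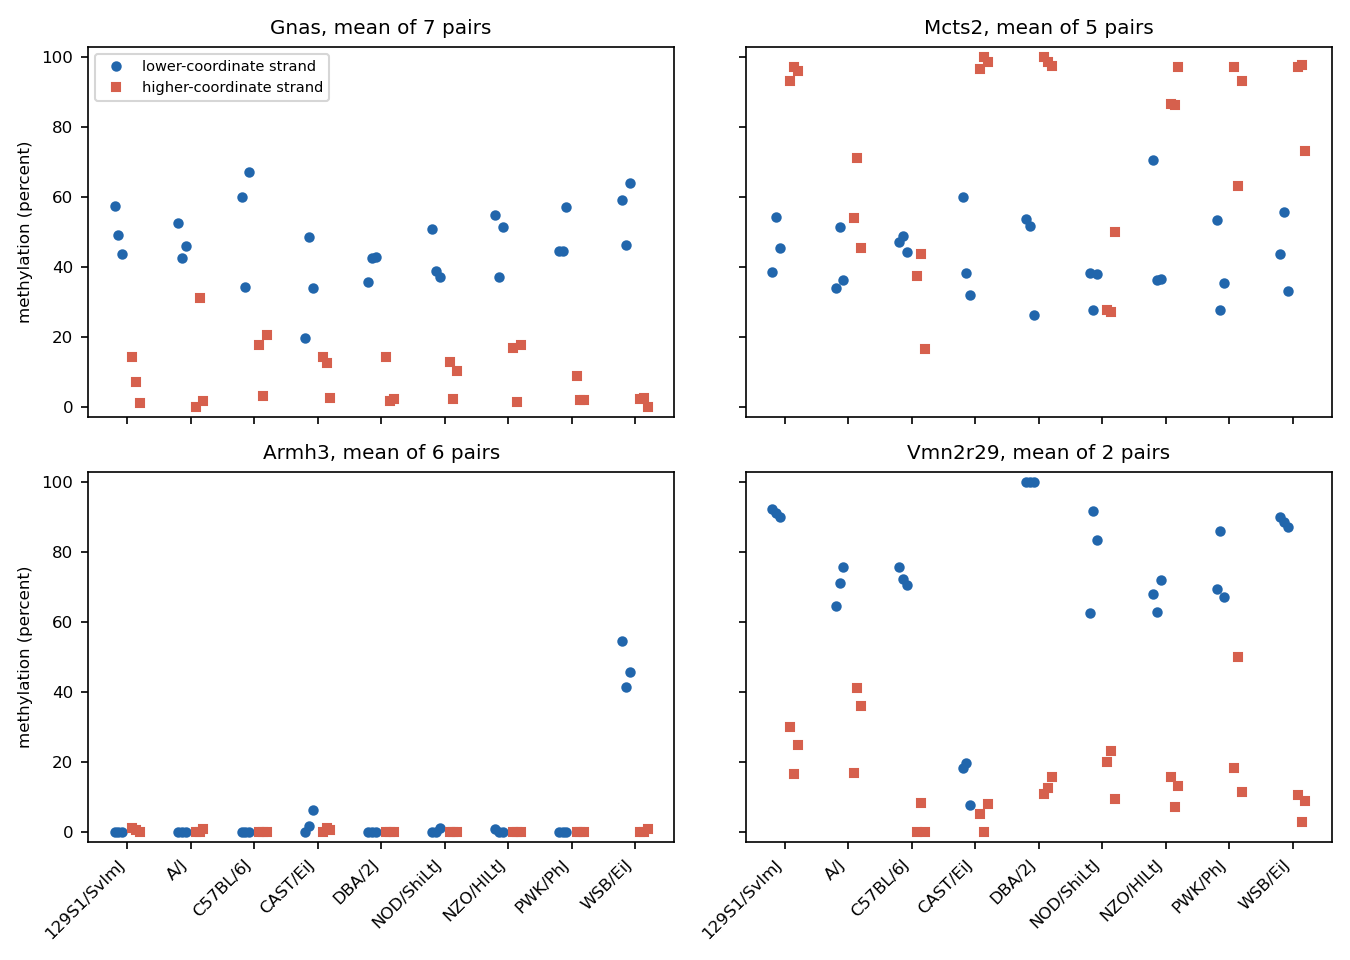
Percent methylation of the lower-coordinate strand (blue circles) and the higher-coordinate strand (red squares) in 3 samples of each strain, averaged over the called pairs of Gnas (7), Mcts2 (5), Armh3 (6) and Vmn2r29 (2). Strands are apart in all strains at Gnas, in some strains at Mcts2 and in WSB/EiJ at Armh3, while at Vmn2r29 the gap is smallest in CAST/EiJ.

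At the promoter CpGs compared, the letters beside a CpG went with small differences between its strands. In promoter windows, where RefSeq gives the sequence, each strand of a pair was written 5′ to 3′ with 1 letter before and 1 after the CG, and pairs at 10 to 90% methylation were compared for the 6 contexts that differ between strands. Strands reading CCGC exceeded their GCGG partners by 2.10 ± 0.873 points (SD, n = 27) over 520 pairs, in all 27 samples (exact sign-flip permutation test, adjusted p = 0.0117 over 6 contexts). Strands reading GCGA were 1.98 points below their TCGC partners over 182 pairs, in 25 of 27 samples (adjusted p = 0.0117, same permutation test). ACGC exceeded GCGT by 1.17 points (adjusted p = 0.0410) and ACGA lay 1.10 points below TCGT (adjusted p = 0.0313), both by the same permutation test. The other contexts, ACGG with CCGT and CCGA with TCGG, differed by -0.124 and 0.0637 points (adjusted p = 0.797 each, permutation test). In 3 of the 4 contexts that passed, the strand with C after its CG was the higher one. Every strain was read at the same CpGs, so a fixed difference at a few of them recurs in each strain mean. The p-values measure the spread between strains and not between CpGs. They do not show that other CpGs of a context would differ alike. Between the strand that carries the gene's sense sequence and the other, the difference was -0.0896 ± 0.415 points over 1890 pairs and did not pass (exact sign-flip permutation test, p = 0.395).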

How the data were processed

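The deposited files give percent methylation at single positions; per the labels' protocols, DNA was digested with MspI and libraries were made with the Ovation RRBS Methyl-Seq System. Trim Galore 0.6.3, Bowtie2, Bismark 0.22 and the builds GRCm38 and mm10 are named in the submitters' processing notes, and their settings, strand handling and any coverage minimum are not given in the sources used here. No file holds read numbers, so no count model was run and depth is unknown. Pairs were found by position, and p was taken as the forward strand's C. Gene spans and promoter windows are RefSeq, GRCm38.p6. Samples were grouped by the strain in the labels.

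Values per sample were compared by an F permutation test over strains (100000 resamples, smallest p 1e-05) or an exact two-sided sign-flip permutation test over 9 strain means (512 sign patterns). Single pairs were tested with limma 3.58.1 in R 4.3.3, with an offset of 5 points, on pairs with a mean level of 2.5 to 97.5%, and tested on simulated data. Adjusted p-values are Benjamini-Hochberg over all pairs tested.

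Named pairs were the 10 persistent ones with the largest mean difference and the 10 called among strains with the widest span, at most 1 per 1000 bp, plus 22 imprinted genes. Pairs outside that rule (Ncam1, the 2 lesser Taco1 pairs, Cspg4, the pair near Rpp21, Armh3, Commd1, Romo1, Vmn2r29) were chosen after their values were seen. Members and lists were chosen with earlier results of these data known. The comparisons of neighbouring CpGs, of strain differences on the other strand, of letters beside the CpG, of the sense strand, of the X chromosome, with level matching and without C57BL/6J were added after seeing the data. Whether mice of a strain shared a litter or run is not given, so p-values measure the spread between these samples. Replicate numbers did not pair samples (76 same-numbered sample pairs had deviation correlations from -0.0181 to 0.0321). Some items are not reported here.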

Additional observations from a re-analysis of the deposited data

Results flagged for a closer look

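The near minus far difference around gene ends varied among strains in each of the 5 level classes, by a permutation test of F over the 9 strains with 3 samples each, adjusted over the 5 classes. F was 10.9 under 10% methylation (adjusted p = 5.0e-05, permutation test). Strain means there ran from -1.21 points in PWK/PhJ to -0.811 in WSB/EiJ, so all strains shared the sign. F was 5.44 from 10 to 30% (adjusted p = 0.00207, permutation test), with -0.553 points in CAST/EiJ and 0.203 in DBA/2J at the ends of the order. From 30 to 70% F was 2.83 (adjusted p = 0.0317, permutation test), with -0.360 points in 129S1/SvImJ and 0.434 in PWK/PhJ. From 70 to 90% F was 6.89 (adjusted p = 0.000783, permutation test), with -0.325 in A/J and 0.662 in CAST/EiJ. At 90% and over F was 5.89 (adjusted p = 0.000783, permutation test), with -0.144 in A/J and 0.270 in C57BL/6J. The SD within strains was 0.0148 to 0.101 points under 10% and up to 0.449 points in the other classes. Levels of near and far pairs within a class were not matched in this test.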

How the results depend on the processing

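The count of pairs whose strands differ from 0 was 2730 with a minimum of 5 points, 590 with 20 and 3116 with no condition on p-1 and p+2, and 1585 to 1769 when a sample was left out. The count among strains was 41 with an offset of 1 point, 385 on untransformed points, 72 at levels of 10 to 90%, 104 with a minimum span of 50 points, 255 with no condition on p-1 and p+2 and 117 to 189 when a sample was left out. A replicate block, for numbers that did not pair the samples, gave 79 among strains and 1656 against 0. Persistent pairs numbered 43 at 20 points, 9 at 40, 37 for 26 samples or more, 61 for 24 or more and 21 to 23 when a sample was left out. F of the mean absolute difference was 1.70 to 4.44 when a sample was left out and 1.30 without C57BL/6J. The mean signed difference was -0.00135 points with no condition on p-1 and p+2, and 0.00527 to 0.00983 when a sample was left out (p = 0.0469 without C57BL/6J replicate 2, exact permutation test).

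Gene-end differences above 10% methylation moved with the setting, on unadjusted p: the sign turned in 3 classes, and from 70 to 90% only the call was lost. From 10 to 30% they were -0.313 points with 250 bp, -0.260 with 5000 bp, 0.322 with classes set per sample and 0.207 matched on level. From 30 to 70% they were -0.212 with 250 bp, -0.0449 with 5000 bp, -0.102 with classes per sample and 0.206 with no condition on p-1 and p+2. From 70 to 90% they were 0.0993, 0.139 and 0.0906 with 250 bp, 5000 bp and level matching, and 0.252 to 0.291 when a sample was left out. At 90% and over they were 0.204 with 250 bp, -0.196 with 5000 bp and 0.0715 with classes per sample. The cause was not tested. Under 10% all alternatives kept the sign and the call, from -0.995 to -0.0561 points. The value of -0.0561 was that matched on level, where level and distance were not fully separated. The excess over the mouse difference also kept its sign and call, from 0.0679 to 0.306 points. Unknown depth limits the reading of any single value. Over all results and alternatives, 819 values kept direction and call or size, 110 lost the call, 6 gained it, 13 counts moved and 7 values turned; most lost calls were those of the 10 pairs named among strains.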

Other observations

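The X chromosome held 11086 pairs by the same rule. Of these, 43.4% lay at 10 to 30% methylation and 21.9% at 30 to 70%, against 3.57% and 4.33% of autosomal pairs. In the 30 to 70% class the strands differed by 17.2 ± 1.79 points (SD, n = 27) on X and 17.2 ± 1.89 on autosomes, and the test did not pass (exact sign-flip permutation test over 9 strains, adjusted p = 0.844 over 5 classes). Mean levels in that class were 41.4% on X and 51.7% on autosomes, the widest gap in level of the 5 classes, and the values were not matched on level. Under 10% the strands differed by 6.73 points on X and 1.75 on autosomes (adjusted p = 0.00977, same permutation test), with mean levels of 5.91% and 1.21%. From 10 to 30% they differed by 13.1 and 12.1 points (adjusted p = 0.0456, same permutation test), with X higher in 23 of 27 samples and mean levels of 19.6% and 17.7%. From 70 to 90% the values were 13.0 and 13.1 points (adjusted p = 0.732, same permutation test), with mean levels of 82.5% and 82.7%. At 90% and over the values were 6.82 and 6.33 points (adjusted p = 0.00977, same permutation test), and X was higher in 26 of 27 samples, with mean levels of 94.3% and 95.03%.

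A further 117371 of the shared autosomal positions (7.10%) had no position listed beside them in any sample, so only one strand of their CpG was listed.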
